A study of Mus musculus with 11 samples.

Results

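The semaphorins, with the plexins and neuropilins that receive them, were followed in the main olfactory epithelium (MOE) of newborn mice with and without Bcl11b. Members were all probe sets on the array annotated to a single semaphorin gene of classes 3 to 7, a single plexin gene or Nrp1 or Nrp2, with a mean signal of at least 20 over the 11 arrays, which gave 31 of the 15133 genes and 68 of the 33662 probe sets tested. They were 7 secreted semaphorins (17 probe sets), 13 membrane-bound semaphorins (26), 2 neuropilins (8) and 9 plexins (17). Another 11 probe sets with such symbols lay under that signal and were not tested, 10 of them of genes that other probe sets represent and 1 of Plxna4os1, an antisense transcript. The study compared 5 wild type and 6 Bcl11b KO preparations of whole MOE, 1 array each, at postnatal day 0. The KO mice carried a conventional deletion of Bcl11b in every tissue, and the study kept that strain on a BALB/c background. All wild type mice and 4 KO mice were labelled male, and KO 3 and KO 6 female. Each preparation came from the whole dissected epithelium, so fewer cells of a type and less RNA per cell cannot be told apart. Changes in its dorsal and ventral parts cannot be told apart either. The study counted fewer Omp-positive mature neurons in the KO in the ventral part and not in the dorsal part.

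Semaphorins are guidance cues that steer growing axons, mostly by repulsion, and also shape vessels, bone and immune contacts. Class 3 members are secreted and bind a neuropilin, which pairs with a class A plexin that carries the signal into the cell by its GTPase-activating domain. Semaphorins of classes 4 to 6 span the membrane and class 7 is held by a lipid anchor, and these bind plexins directly. Olfactory sensory neurons (OSNs) use the system to order their axons on the way to the olfactory bulb: Sema3a and Nrp1 set positions along the anterior-posterior axis, and Sema3f and Nrp2 along the dorsal-ventral axis. Bcl11b is a zinc finger transcription factor of the OSN lineage, and whether its loss reached these guidance genes was the question of the comparison.

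Bcl11b was lower on every KO array than on every wild type array, and markers of the epithelium were present on all. Bcl11b signal on its brightest probe set lay between 2694.3 and 4122.7 in wild type and between 560.5 and 1249.8 in KO (log2 change -1.88 ± 0.17, SE; limma, adjusted p = 1.2e-05). Omp, which marks mature OSNs, read 440.4 to 702.3 in wild type and 238.7 to 450.9 in KO, and Cyp2g1, of sustentacular cells, read 5558 to 6520 and 4710.5 to 6451.7. Median signals of the arrays were 56.6 to 85.5 in wild type and 61.9 to 86.3 in KO. KO 2 and KO 3 had the highest 3'/5' ratio of GAPDH, a sign of RNA quality (2.42 and 2.70, against 1.82 to 2.27 on the others), and KO 2 had the lowest median signal of the KO arrays. KO 2 was the lowest KO array on 36 of the 68 member probe sets (52.9%, against 26.5% of all tested probe sets), and without it 0 of the 68 passed the test described next (limma; smallest adjusted p = 0.148, 5 at an unadjusted p under 0.05). KO 3, with the higher GAPDH ratio, was lowest on 13 of the 68 (19.1%, against 39.8% of all). KO 2 was also the lowest KO array for 9 of 9 cartilage markers, 7 of 11 of smooth muscle and 7 of 11 of cell cycle. The count was 6 of 12 for mesenchyme, 4 of 8 for ensheathing glia and 22 of 44 for partner genes of these receptors. Lower shares were those of immature OSNs (5 of 14), macrophages (4 of 12), ciliated cells (2 of 8) and endothelium (3 of 13). Bone and neuronal precursors had 1 of 6 each, sustentacular cells 1 of 10 and mature OSNs 1 of 12. Horizontal basal, erythroid and gland markers had 0 of 7, 6 and 7. The part of these lists in the members' values on that array was not tested. Spiked poly-A control transcripts divided the arrays into a set with higher control signal (2 wild type and 3 KO) and a set with lower control signal (3 and 3), for which the labels give no reason.

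No semaphorin, plexin or neuropilin passed the test for a change in the KO. Of the 68 probe sets 0 were higher and 0 lower (limma, adjusted p under 0.05), where 0.455% of all tested probe sets passed, 0.244% higher and 0.211% lower. The smallest adjusted p among them was 0.447. At an unadjusted p under 0.05 there were 4 probe sets, or 5.88%, against 6.92% of all tested probe sets. These were the brightest probe sets of Plxnb3, Sema7a and Sema5b, with positive estimates, and the dimmest of 4 probe sets of Nrp1, with a negative one. Groups did not overlap on 1 probe set, that of Sema7a, which is 1.47% of members against 1.29% of all.

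Estimated changes ran from -0.56 to 0.46 on the log2(signal + 16) scale, with a median of 0.023 beside 0.047 over all tested probe sets. Positive estimates made up 37 of 68, or 54.4%, against 60.4% of all. Without wild type 4, which had the lowest median signal of the 11 arrays (56.6), 28 of 68 were positive. That was 41.2%, against 48.2% of all, with a median of -0.033. Without wild type 1, and likewise without wild type 2, 44 of 68 were positive. That was 64.7%, against 63.2% of all without wild type 1 and 68% of all without wild type 2. The 95% interval of the change lay within 2-fold in either direction for 63 of the 68 and within 1.5-fold for 40, shares of 92.6% and 58.8% beside 94.6% and 57.6% of all tested probe sets. An adjusted p above the threshold does not show equal levels, and these intervals give the size of change that 11 arrays leave possible. Standard errors were 0.13 to 0.28 for the 40 probe sets with a mean signal of at least 100 and 0.15 to 0.37 for the 28 dimmer ones.

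**Figure D1:**
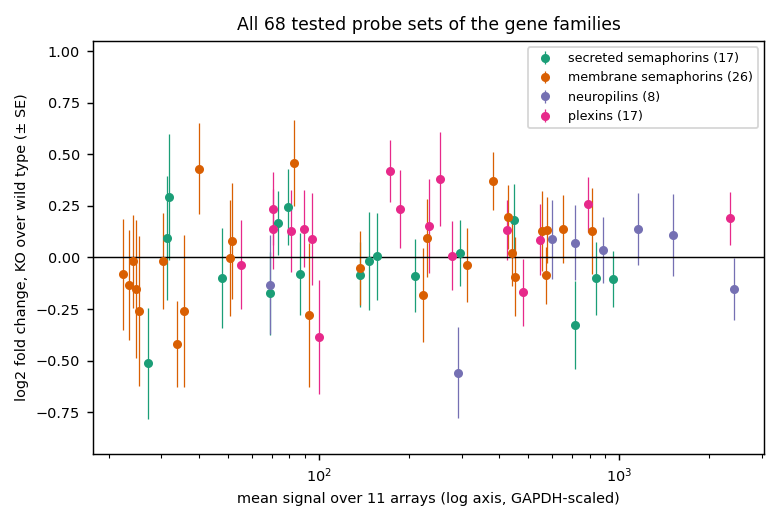
Each point is 1 of the 68 tested probe sets, at its mean signal over the 11 arrays (x, log axis, scaled to GAPDH) and its log2 change from wild type to KO (y, bars 1 SE of the limma estimate), coloured by role. Estimates lie between -0.56 and 0.46, on both sides of 0.

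Secreted semaphorins did not pass on any of 17 probe sets, 7 with positive and 10 with negative estimates and a median of -0.080. Sema3a, the repellent that acts through Nrp1, had signals of 413.6, 509.1, 430.7, 368.1 and 337.4 on wild type arrays 1 to 5, and KO arrays ran from 315.3 to 573.9 with a median of 517.35. The groups overlapped, with KO 2 (315.3) below every wild type array and KO 1, KO 4 and KO 6 above every one. Its log2 change was 0.18 ± 0.17 (SE; 95% interval -0.19 to 0.55; limma, adjusted p = 0.960), and its dimmer probe sets gave 0.17 and 0.29. Sema3f, the ligand of Nrp2, read 770.2, 1323.4, 971.6, 705.6 and 641.4 in wild type and from 668.5 to 1022 with a median of 747.95 in KO. The highest value was that of wild type 2, and the KO arrays lay inside the wild type range (log2 change -0.10 ± 0.18; 95% interval -0.47 to 0.27; limma, adjusted p = 0.985); its other probe sets gave 0.022 and 0.0065.

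Among the other secreted members Sema3e and Sema3d had the smallest p. Sema3e differs from its class in binding plexin D1 without a neuropilin. Its dimmest tested probe set read 30.1, 39.7, 39.7, 30.7 and 28.4 in wild type and from 5.2 to 47.1 with a median of 21.25 in KO, with KO 2 and KO 3 at 5.2 and 6.1 and KO 5 above every wild type array (log2 change -0.51 ± 0.27; limma, adjusted p = 0.794). The brighter Sema3e probe sets, with mean signals of 148 and 137, gave -0.018 and -0.082. Sema3d read 827.5, 845.2, 799.4, 532.5 and 947.5 in wild type, and the KO arrays ran from 399.6 to 1005.5 with a median of 644.25. Its lowest values were again on KO 3 and KO 2 (399.6 and 423.6), and KO 6 was the highest of all (log2 change -0.33 ± 0.21; limma, adjusted p = 0.902). Within the arrays of higher poly-A controls Sema3d differed by -0.060, and within the others, which hold KO 2 and KO 3, by -0.63. Sema3c, a class 3 member required for heart outflow vessels, had -0.10 ± 0.14 (SE), while Sema3b, a ligand of both neuropilins, and Sema3g, made by endothelium, had -0.089 ± 0.18 and 0.24 ± 0.19 (limma, adjusted p from 0.932 to 0.987). The 3 probe sets of Sema3b gave estimates of both signs (-0.10 to 0.096).

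**Figure D2:**
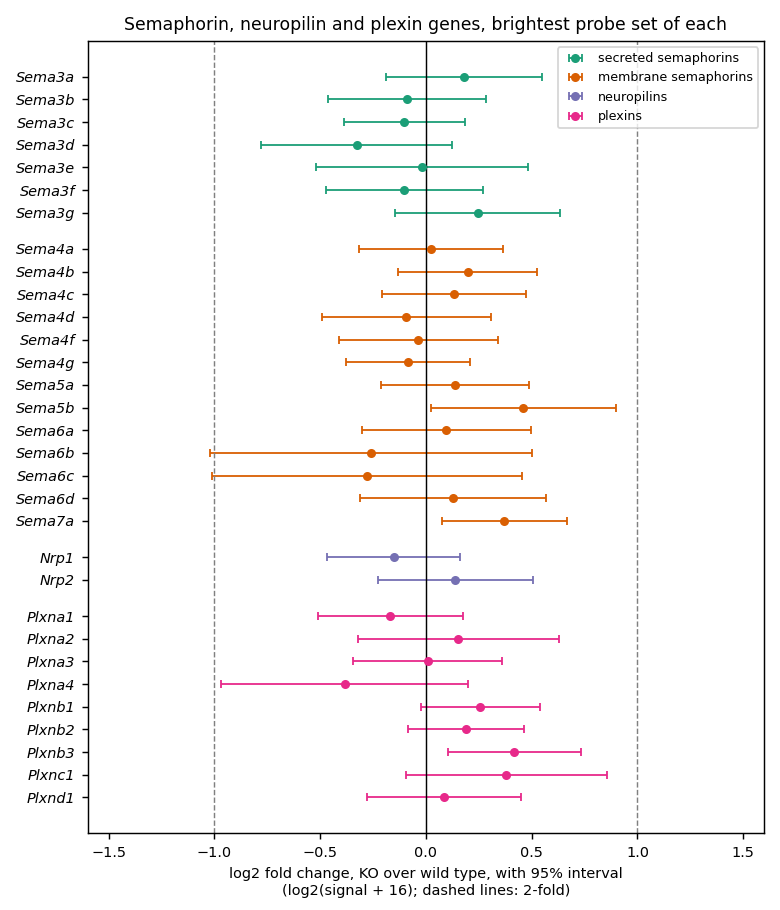
Estimated log2 change from wild type to KO (x) for the brightest probe set of each of the 31 genes, with its 95% interval from limma; dashed lines mark a 2-fold change. Intervals of Sema5b, Sema7a and Plxnb3 do not reach 0 and no adjusted p lay under 0.447; intervals of Sema6b and Sema6c reach below -1.

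Of the 26 probe sets of membrane-bound semaphorins none passed, with 11 positive and 15 negative estimates and a median of -0.019. By the brightest probe set of each of the 13 genes, 8 estimates were positive and 5 negative, with a median of 0.096. Sema7a, the lipid-anchored semaphorin that binds plexin C1 and integrins, was the member whose groups did not overlap. Its signals were 316.2, 362.9, 351.9, 264.2 and 336.9 on wild type arrays 1 to 5 and 424.3, 403, 540.7, 414.4, 388.1 and 392.5 on KO arrays 1 to 6. Every KO array lay above every wild type array, and the gap between KO 5 and wild type 2 was narrower than the spread inside either group. The arrays averaged 326 ± 38.9 (SD, n = 5) for wild type against 427 ± 57.2 (SD, n = 6) for KO, which gave a log2 change of 0.37 ± 0.14 (SE; 95% interval 0.077 to 0.67; limma, adjusted p = 0.505). The highest array was KO 3, without which the change was 0.30 (adjusted p = 0.410), and over all alternatives the estimate ran from 0.19 to 0.50 with adjusted p from 0.353 upward. Within the arrays of higher and lower poly-A controls it was 0.22 and 0.50, and in males alone 0.31. Its other probe set had a mean signal of 4.25 and was not tested.

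Sema5b, a transmembrane semaphorin with thrombospondin repeats, read 59, 65.4, 64.7, 52.2 and 83 in wild type and from 46.4 to 130.1 with a median of 99.55 in KO on its brighter probe set. All KO arrays except KO 2 (46.4) lay above the highest wild type array, and KO 2 lay below the lowest (log2 change 0.46 ± 0.21, SE; limma, adjusted p = 0.679). Without KO 2 the change was 0.62 with an adjusted p of 0.148, the lowest that any alternative gave for this gene. Its dimmer probe set showed no such difference (-0.0022 ± 0.28; 95% interval -0.59 to 0.59). Within the arrays of higher and lower poly-A controls the brighter probe set differed by 0.74 and 0.19.

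The class 4 semaphorins, ligands of B plexins that also act between immune cells, had small estimates. Sema4d, the ligand of plexin B1, had a log2 change of -0.093 ± 0.19, and Sema4c and Sema4g, ligands of plexin B2, had 0.13 ± 0.16 and -0.086 ± 0.14 (SE; limma, adjusted p from 0.974 to 0.987). Sema4a, Sema4b and Sema4f had 0.024 ± 0.16, 0.20 ± 0.16 and -0.036 ± 0.18 (adjusted p from 0.938 to 0.996). Among classes 5 and 6, Sema5a, a ligand of plexin B3, had 0.14 ± 0.17, Sema6a, the ligand of plexins A2 and A4, 0.10 ± 0.19, and Sema6d, a ligand of plexin A1, 0.13 ± 0.21 (adjusted p from 0.974 to 0.987). Sema6b and Sema6c were less precise, at -0.26 ± 0.36 and -0.28 ± 0.35, with intervals of -1.02 to 0.50 and -1.01 to 0.46. The Sema6c estimate was -0.84 within the arrays of higher poly-A controls and 0.26 within the others. Sema6b had a mean signal of only 25.3. Probe sets of Sema4a, Sema5a and Sema6d gave estimates of both signs, widest for Sema5a (-0.42 to 0.14), whose lowest estimate came from a probe set with a mean signal of 33.9.

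**Figure D3:**
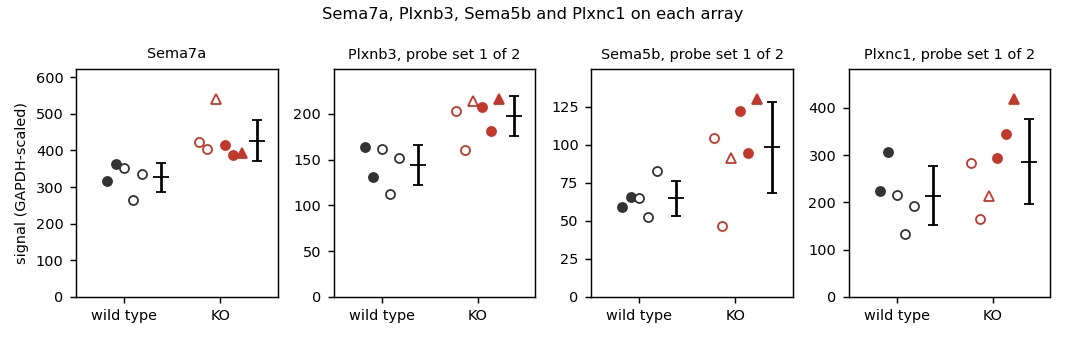
Signal (scaled to GAPDH, axis from 0) on each array for Sema7a, Plxnb3, Sema5b and Plxnc1, brightest probe set of each; circles are males, triangles females, filled symbols arrays with higher poly-A controls, and bars give mean and SD. Sema7a runs from 264.2 to 362.9 in wild type and from 388.1 to 540.7 in KO, and in the other panels the groups overlap.

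The neuropilins, the receptors through which OSN axons read secreted semaphorins, did not pass on any of 8 probe sets. Nrp1, also a receptor for vascular endothelial growth factor, read 2670.7, 2798.6, 2368.6, 2020.8 and 2815.2 on wild type arrays 1 to 5 of its brightest probe set, and KO arrays ran from 1700.9 to 3008.6 with a median of 2185.55. KO 1 and KO 4 lay above every wild type array and KO 2 and KO 3 below every one. The log2 change was -0.15 ± 0.15 (SE; 95% interval -0.47 to 0.16; limma, adjusted p = 0.960), and the next probe sets gave 0.11 and 0.088. Nrp2 read 982.7, 1510.2, 865.9, 881.8 and 1259.9 in wild type and from 797.1 to 1471.2 with a median of 1247.8 in KO. Its KO values lay inside the wild type range except for KO 2 (797.1), below it, and the change was 0.14 ± 0.17 (95% interval -0.23 to 0.51; limma, adjusted p = 0.974). The other Nrp2 probe sets gave 0.038, 0.071 and -0.13.

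The dimmest Nrp1 probe set had the most negative estimate of the 4, and probe sets were not tested against each other. It read 354.9, 473.7, 294.3, 230 and 429.1 in wild type and from 124.5 to 322.4 with a median of 242.25 in KO, where KO 2 was the lowest (124.5) and KO 4 the highest. The arrays averaged 356 ± 98.6 (SD, n = 5) for wild type against 238 ± 66.7 (SD, n = 6) for KO, which gave a log2 change of -0.56 ± 0.22 (SE; 95% interval -1.02 to -0.094; limma, adjusted p = 0.557). This was the largest estimate of either sign among the 68, and the spread between the 4 Nrp1 probe sets (0.67) was the widest of the 22 genes with several tested probe sets. Its adjusted p stayed above the threshold in all alternatives, at 0.153 on median-scaled and 0.200 on quantile-normalized arrays, and lowest, at 0.102, on arrays scaled to spiked hybridization controls. Without KO 2 the change was -0.40. Within the arrays of higher and lower poly-A controls it was -0.55 and -0.65. In a ratio chosen after the values were seen, the log2 of this probe set over the brightest ran from -3.05 to -2.52 in wild type and from -3.66 to -2.80 in KO, so that the groups overlapped. Which part of the transcript this probe set reads was not analysed here.

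**Figure D4:**
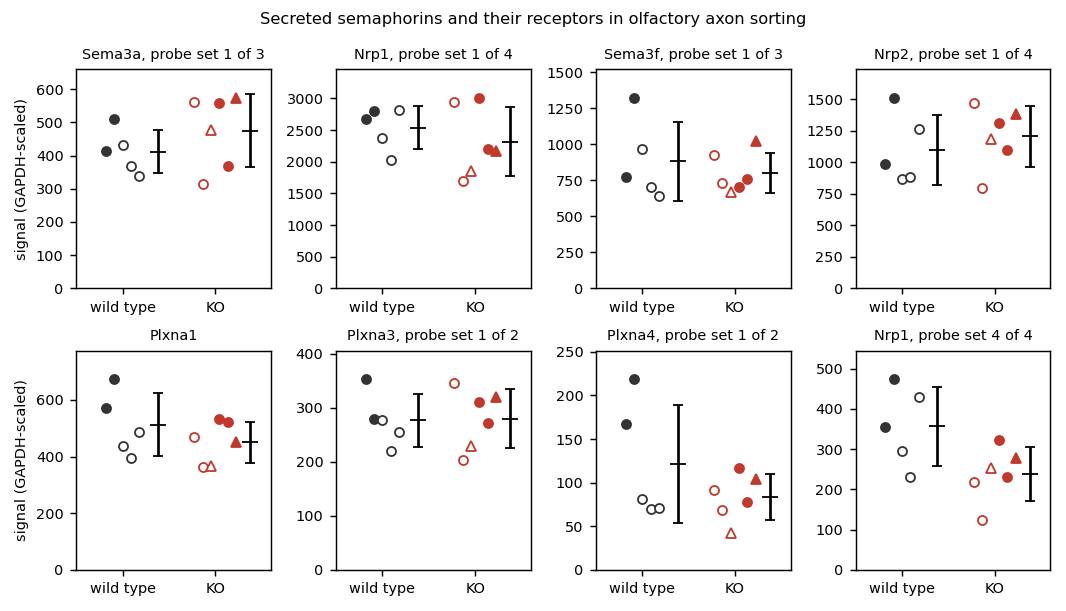
Signal (scaled to GAPDH, axis from 0) on each array for Sema3a, Sema3f, Nrp1, Nrp2 and A plexins; symbols as for Sema7a: triangles are females, filled symbols arrays with higher poly-A controls, and bars give mean and SD. Groups overlap in every panel; on Nrp1 probe set 4 the wild type arrays run from 230 to 473.7 and the KO arrays from 124.5 to 322.4.

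Plexins, the signalling receptors, did not pass on any of 17 probe sets. Estimates were positive for 14 and negative for 3, with a median of 0.14, where 60.4% of all tested probe sets were positive. Several probe sets read the same gene. By the brightest probe set of each of the 9 genes, 7 estimates were positive and 2 negative. The count was 13 of 17 when arrays were put on their median or quantile-normalized (50.4% and 49% of all), and 6 of 17 when they were scaled on spiked hybridization controls (26.5% of all), which moved the median of all probe sets to -0.12. By poly-A controls, 9 of 17 plexin estimates within the higher arrays were positive (median 0.013; 53.5% of all), and within the others 14 of 17 (median 0.20; 55.2% of all). The A plexins are the partners of neuropilins. Plxna3, needed with Nrp2 for responses to Sema3f, read 352.2, 279.2, 277.4, 219.3 and 254.8 in wild type and from 202.7 to 344.6 with a median of 291.1 in KO. Its groups covered nearly the same range, and the log2 change was 0.0081 ± 0.17 (95% interval -0.34 to 0.36; limma, adjusted p = 0.998). Plxna1, a receptor of Sema6d, and Plxna2, a receptor of Sema6a, had -0.17 ± 0.16 and 0.15 ± 0.23 (limma, adjusted p = 0.958 and 0.981). Plxna4, a receptor for Sema3a and for class 6 members, had -0.38 ± 0.28 on its brighter probe set (limma, adjusted p = 0.922). Wild type 1 and 2 carried that difference, at 167.1 and 218.5 against 69.7 to 81.6 on the other wild type arrays and 42.3 to 117.1 in KO. Both belong to the arrays with higher poly-A controls, within which Plxna4 differed by -0.86, against -0.15 within the others.

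Among B plexins, which lead to RhoA through guanine nucleotide exchange factors, Plxnb3 had the smallest p of all 68 probe sets. It read 163.8, 131.2, 162.2, 112.3 and 151.6 in wild type and 202.8, 160.7, 214.3, 208, 181.9 and 216.4 on KO arrays 1 to 6, so that only KO 2 fell below the highest wild type arrays. The arrays averaged 144 ± 22.1 (SD, n = 5) for wild type against 197 ± 21.8 (SD, n = 6) for KO, which gave a log2 change of 0.42 ± 0.15 (SE; 95% interval 0.10 to 0.73; limma, adjusted p = 0.447), and the change was 0.42 and 0.41 within the arrays of higher and lower poly-A controls. Plxnb3 is X-linked, and the females KO 6 and KO 3 gave the highest values; in males alone the change was 0.36 (adjusted p = 0.511), and females exceeded male KO arrays by 0.19 (adjusted p = 0.952). Its dimmer probe set gave 0.14 ± 0.19. Plxna3 is X-linked too, and its female KO arrays differed from the male ones by -0.034. Of all 68 probe sets 0 differed between female and male KO arrays, where 0.0297% of all tested probe sets did and 0.00891% were higher in females (limma, adjusted p under 0.05). At an unadjusted p under 0.05 there was 1, the second of 3 probe sets of Sema6a (log2 difference -0.97), against 5.12% of all. Plxnb1, the receptor of Sema4d, read 780.4, 817.1, 708.8, 577.1 and 687.3 in wild type and from 709.4 to 1021.2 with a median of 842.9 in KO; KO 1, KO 4 and KO 6 lay above every wild type array (log2 change 0.26 ± 0.13; limma, adjusted p = 0.795). Plxnb2, a broadly expressed receptor of class 4 ligands, had 0.19 ± 0.13 (adjusted p = 0.914). Plxnc1, the receptor of Sema7a, had 0.38 ± 0.23 (95% interval -0.10 to 0.86; adjusted p = 0.865), and Plxnd1, the endothelial receptor of Sema3e, 0.086 ± 0.17.

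The genes that work beside these receptors were not called either. Of a list of 45 partners, among them the CRMP and MICAL proteins that plexins signal through, the exchange factors and small GTPases, and the co-receptors L1cam, Nrcam, Chl1, Met and Kdr, 44 were measured, and 0 rose and 0 fell (limma, adjusted p under 0.05). At an unadjusted p under 0.05 there were 3 (6.82%, against 6.92% of all tested probe sets), all with positive estimates. Positive estimates made up 37 of 44 (84.1%, against 60.4% of all). Each partner was read by its brightest probe set, while the share of all includes dim probe sets. Among all probe sets with a mean signal of at least 100, 63.4% of estimates were positive. The share of all tested probe sets was 50.4% on median-scaled arrays and 26.5% on arrays scaled to spiked hybridization controls. Positive partner estimates were not counted under those scalings. The median change was 0.12, and changes ran from -0.27 to 0.56. Ranbp9, a scaffold that binds plexin A, had a log2 change of 0.43 ± 0.16 (SE), from 721 ± 112 (SD, n = 5) to 986 ± 203 (SD, n = 6), with overlapping groups (limma, adjusted p = 0.514). Crmp1, which mediates the response to Sema3a, had 0.33 ± 0.15 (limma, adjusted p = 0.668).

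The dissected tissue holds several cell types, and their markers were read beside these genes. Of 12 measured mature OSN markers 4 fell (Stoml3, Cnga4, Gng13 and Gnal) and 0 rose, and their summed signal was 14685.7 to 19645.7 in wild type and 9196.1 to 12752.3 in KO, with no overlap. Plxna3, Plxna4, Sema3e and Sema4g are on a mature OSN list that the study tabulated, and the 5 member probe sets on it had changes of -0.38 to 0.0081 with no adjusted p under 0.922. Of 14 immature OSN markers 1 rose (Stmn4) and 0 fell, and of 6 neuronal precursor markers 2 rose (Neurog1 and Neurod1) (limma, adjusted p under 0.05). Endothelial markers, where Nrp1 and Plxnd1 are prominent, had 0 of 13 past the threshold (1 at an unadjusted p under 0.05; median change 0.13; summed signal 3965.6 to 5630.7 in wild type and 4243.2 to 5718.2 in KO). Mesenchyme and fibroblast markers had 0 of 12 (3 unadjusted; median 0.11), ensheathing glia 0 of 8 (3 unadjusted; median 0.34) and macrophages and leukocytes 0 of 12 (1 unadjusted; median 0.16). Bone markers had 0 of 6 (2 unadjusted), with 6 positive estimates and a median of 0.40, and cartilage markers 0 of 9 (0 unadjusted), with 0 positive estimates and a median of -0.27. Sustentacular markers had 0 of 10 (3 unadjusted; median -0.0058). Horizontal basal, smooth muscle, ciliated, gland and cell cycle markers had 0 of 7, 11, 8, 7 and 11 (0 unadjusted in each), with medians of 0.068, -0.0085, 0.15, -0.053 and 0.15. Of 6 erythroid markers 2 rose, the embryonic globins Hbb-y and Hbb-bh1, the mean log2 level of the 6 ran from 7.13 to 7.62 in wild type and from 8.00 to 8.34 in KO without overlap, and their summed signal overlapped (2711.7 to 3872 in wild type and 2689.4 to 3691.2 in KO). What part these markers have in the values of single members was not tested.

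Between the arrays of higher and lower poly-A controls, members differed at a share near that of all probe sets. In a fit with both terms, 5 of the 68 probe sets differed between the array sets (limma, adjusted p under 0.05), each higher where the controls were higher. That is 7.35% of members against 5.79% of all tested probe sets (5.63% higher where the controls were higher). At an unadjusted p under 0.05 there were 23 of 68, against 25.3% of all, and 54 of 68 estimates were positive (79.4%, against 82.6% of all). The 5 were the dimmest probe set of Sema3a (log2 difference 0.92 ± 0.21, SE; adjusted p = 0.0213), the brightest of Plxna4 (0.81 ± 0.19; 0.0233), Sema3e (0.64) and Plxnc1 (0.61), and the third by signal of Plxna2 (0.59). With the array set as a covariate 0 of 68 differed between genotypes, and the smallest adjusted p was 0.250, that of the dimmest Nrp1 probe set.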

How the data were processed

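Intensities of 45101 probe sets on 11 Affymetrix Mouse Genome 430 2.0 arrays (5 wild type, 6 KO) were analysed. Per the study's methods and labels, the authors made biotinylated cRNA in 2 rounds of amplification and scaled each array linearly to GAPDH (the submitters' processing notes name GCOS, version not given in the sources used here). The deposited intensities are on a linear scale. The scaling GAPDH probe set has the value 10000 throughout, and any true difference in GAPDH would shift all values of an array. Genes were named from the platform annotation where it gave 1 symbol (34958 probe sets; 932 gave several and 9211 none). Groups, replicate numbers and sex came from the labels.

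Control probe sets (64) and those with a mean signal under 20 were left out, leaving 33662. KO minus wild type was tested on log2(signal + 16) in limma 3.58.1 (R 4.3.3; lmFit, eBayes with trend, no covariate) with Benjamini-Hochberg adjustment over all tested probe sets and a threshold of 0.05; the pseudocount understates changes of dim probe sets. Intervals are 95%. On simulated data the fit recovered known changes before use. Its power for changes as small as the estimates of the members was not tested. P-values measure the spread between preparations, and the number of arrays limits precision. A gene is represented by its brightest tested probe set; levels are not compared between probe sets.

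The member genes, lists and tests were chosen with earlier results of these data known. Every member gene was named. Array values were given for Bcl11b, for the 2 members of smallest p in each role and for Sema3a, Sema3f, Nrp1, Nrp2 and Plxna3. Of the partners and marker lists, members past the threshold or of smallest p were named. Besides these, Omp and Cyp2g1 were named as markers of the epithelium, and some partners to describe their list. Alternatives covered scaling, pseudocount, filter, trend, sex, replicate number, array set by poly-A controls, probe set choice and each array left out. The array sets were split at the largest gap in the mean log2 signal of 3' poly-A control probe sets.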

Additional observations from a re-analysis of the deposited data

Results flagged for a closer look

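Of 66 sets of array values examined, each of a single genotype and probe set, 2 held an array far from the others by Dixon's criterion, which chance meets in about 1 of 20. Both were in the KO. Sema7a read 540.7 on KO 3, with 424.3 the next highest KO value. Plxna2 read 435.7 on KO 5, with 235.6 the next highest; without that array its log2 change was -0.016 in place of 0.15.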

How the results depend on the processing

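The count of 0 member probe sets higher and 0 lower in the KO was the same under all alternatives run, as was that of 0 and 0 partner genes, while the number called over all probe sets ran from 31 to 316. The smallest adjusted p of a member under any alternative was 0.102 (the dimmest Nrp1 probe set after scaling on spiked hybridization controls). The log2 change of Bcl11b ran from -2.06 to -1.65 and stayed past the threshold, with adjusted p up to 0.00616. Same-numbered arrays did not deviate together (correlations of -0.28 to 0.0085 over 5 pairs). Correlations of 5 pairs cannot show whether same-numbered mice shared a litter or a day of handling. With the replicate number as a block 0 members were higher and 0 lower. That fit left out KO 6, whose number has no wild type array. In it 92 of all probe sets were called in place of 153, and Bcl11b changed by -1.82. Leaving out KO 6 without a block gave 133 calls. Some estimates turned sign, among them Sema6c (-0.28 as reported) and others of at most 0.15 in size as reported, and none of them passed the threshold. After scaling on spiked hybridization controls the log2 changes that turned were Nrp2 -0.042, Plxna2 -0.017, Plxna3 -0.17, Plxnd1 -0.093, Sema4a -0.15, Sema4c -0.046, Sema5a -0.041, Sema6a -0.075 and Sema6d -0.053. After scaling on the array median the log2 changes that turned were Plxna3 -0.042 and Sema4a -0.026. With the poly-A array set as a covariate the log2 changes that turned were Plxna3 -0.019 and Sema4a -0.00042. After quantile normalization the log2 changes that turned were Plxna3 -0.046 and Sema4a -0.040. With the replicate block the one that turned was Plxna3 -0.032. Within the arrays of higher poly-A controls the log2 changes that turned were Plxna3 -0.063 and Sema4c -0.070. In males only the log2 changes that turned were Sema3b 0.080 and Sema3e 0.093. With sex as a covariate the estimates equal those of males only by design, because all females were KO, so the same changes turned. Within the arrays of lower poly-A controls the log2 changes that turned were Sema3e 0.014, Sema3f 0.014, Sema4a -0.094, Sema6c 0.26 and Sema6d -0.20. In the mean over all tested probe sets of a gene the log2 changes that turned were Sema4a -0.078 and Sema5a -0.051. Leaving out single arrays, the estimates that turned ran as follows: Plxna2 -0.016 to 0.29, Plxna3 -0.067 to 0.095, Sema3b -0.18 to 0.013, Sema3e -0.21 to 0.15, Sema3f -0.20 to 0.055, Sema4a -0.035 to 0.10, Sema4d -0.22 to 0.018, Sema4f -0.12 to 0.074, Sema6a -0.00026 to 0.21 and Sema6d -0.0019 to 0.27. The cause was not tested. Dim probe sets limit precision, with standard errors up to 0.37.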
